A study of Homo sapiens with 12 samples.

Results

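The p53 pathway was followed through 32 genes, chosen by name: regulators that feed back on p53 and well-known targets that act in cell cycle arrest, DNA repair, metabolism, cell death and secreted signalling. Genes of the BCL2 family and most death receptors were not part of the set. All 32 were found among the 20263 genes of the deposited table, each on a single row, and 30 of them reached a level that could be tested. The cells were U87, an established human glioblastoma line that is widely used as a model of tumour cells with functional p53. All groups were kept in hypoxia, at 1% oxygen and, per the design text, for 72 h, and none was kept at normal oxygen. The sources differ on the duration, since the methods text has a shorter time for mRNA detection. The 4 groups were cells with the empty vector (vector) and cells labelled as knockouts of HIF1α (HIF1α-ko), of HIF2α (HIF2α-ko) and of both (HIF1α/2α-ko), with 3 libraries in each and 12 in all. The method of knockout and whether each line was 1 clone are not given in the sources used here, so that a knockout and a property of 1 line cannot be told apart. The labels do not say that the libraries of a group came from separate cultures, and the p-values below measure only the spread between these libraries, which may be technical.

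p53 is a transcription factor held at a low level by the ubiquitin ligase MDM2, which is itself a target of p53 and so closes a negative feedback loop. Stress that stabilises p53 turns on genes that stop the cell cycle, repair DNA, restrain growth metabolism or, at the far end, start apoptosis. HIF1α and HIF2α are the oxygen-regulated subunits of the transcription factors that carry the response to hypoxia, and many genes of the set also answer to stress signals other than p53.

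Expression was given as TPM, a measure of abundance per unit of transcript length whose sum is the same in every library, so that levels can be compared between genes but each value is a share of the RNA. Changes are log2 fold changes on log2(TPM + 1), which understates the change of genes below a few TPM, and are given with their standard error (SE). They were tested in limma across 11731 genes with Benjamini-Hochberg adjustment, and "rose" and "fell" below mean an adjusted p under 0.05. The sequencing depth is unknown. In bulk RNA, a change in every cell and a change in the share of cells that express a gene cannot be told apart.

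The transcripts of the targeted genes were reduced and not absent. HIF1A was at 112, 110.0 and 152 TPM in vector, 57.3, 49.5 and 38.6 across HIF1α-ko, 108, 76.1 and 76.6 across HIF2α-ko and 89.2, 67.8 and 69.4 across HIF1α/2α-ko. In HIF1α/2α-ko it was below vector (-0.71 ± 0.20 SE, limma, adjusted p = 0.010) but 0.64 ± 0.20 above HIF1α-ko (0.029), and it overlapped HIF2α-ko, where HIF1α was not targeted (difference -0.19 ± 0.20, adjusted p = 0.45). The loss of HIF1α in the libraries labelled HIF1α/2α-ko is therefore not shown by its RNA, and a transcript that remains says nothing of the protein; the groups are named below by their labels. EPAS1, which encodes HIF2α, was at 286, 333 and 346 TPM in vector and between 87.6 and 129.9 TPM in the 6 libraries labelled HIF2α-ko or HIF1α/2α-ko. Of 5 glial markers AQP4 was listed at 0 in all 12 libraries, and GFAP and S100B did not pass 0.639 and 0.837 TPM, while ALDH1L1 was at 17.4 to 65.8 TPM and SLC1A3 at 2.32 to 11.7 TPM. Of 5 glioma and neural stem markers VIM was at 5635 TPM or more and CD44 at 399 or more, NES was at 2.64 to 6.17 TPM and SOX2 at most 0.0622 TPM. OLIG2 was at 2.70, 2.16 and 0.884 TPM in vector, 3.38, 2.34 and 7.53 across HIF1α-ko, 2.47, 1.66 and 5.16 across HIF2α-ko and 7.61, 14.6 and 19.2 across HIF1α/2α-ko. VIM was at 11593 to 14690 TPM in vector and 5635 to 8711 in HIF1α/2α-ko. The leukocyte and epithelial lists did not pass a summed 0.763 TPM. The endothelial list summed to 1.55 to 7.955 TPM. The neuron list summed to 21.9 to 76.8 TPM, with TUBB3 alone at 18.6 to 73.5. Of 4 fibroblast markers, which mesenchymal glioma cells also express, 2 fell in HIF1α/2α-ko (50%, against 14.8% of all genes). The summed level of the 4 was 72.4 to 100.6 TPM there, 92.6 to 342 in vector, 314 to 347 across HIF1α-ko and 244 to 295 across HIF2α-ko. Of these, COL1A2 was at 261, 47.2 and 49.9 TPM in vector and 59.9, 44.5 and 51.3 across HIF1α/2α-ko, so that the top of the vector range rests on replicate 1. The part of these markers in the results was not tested. Vector replicate 1 stood apart from the other vector libraries (r = 0.968 and 0.966 across genes, against 0.989 between replicates 2 and 3), and replicate 1 of HIF1α/2α-ko was the lowest of its group for 19 of the 30 tested genes of the set.

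More genes of the set were called in HIF1α/2α-ko than in either single knockout. In HIF1α/2α-ko, 18 of the 30 tested genes were higher than in vector and 1 was lower, where 31.8% of all tested genes were higher and 14.8% lower. In HIF1α-ko, 8 were higher and 1 lower, against 17.3% and 8.77% of all genes. In HIF2α-ko, 3 were higher and 1 lower, against 5.07% and 5.89% of all genes. These 3 comparisons use the same vector libraries. The median change of the set was 0.94 across HIF1α/2α-ko, 0.15 across HIF1α-ko and 0.05 across HIF2α-ko, while the median over all tested genes was 0.21, 0.18 and -0.04; relative to all genes the set's median was 0.73 above in HIF1α/2α-ko, 0.03 below in HIF1α-ko (-0.03) and 0.10 above in HIF2α-ko. Leaving out each library in turn moved these from 0.611 to 0.799, from -0.083 to 0.017 and from 0.035 to 0.154, so that the sign in HIF1α-ko was not stable. Ranked by rise over the 11731 genes in HIF1α/2α-ko, AEN was 1, GDF15 was 2, PLK3 was 19 and TIGAR was 49. TIGAR, which is among the 18, reached the level needed for testing only through its HIF1α/2α-ko libraries. With median ratio scaling, which brings the median of all genes to 0.01, the set's split in HIF1α/2α-ko was 16 higher and 3 lower of 30. Under that scaling 2854 of the 11731 genes were higher and 2600 lower. The heat map sets all 30 genes side by side.

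**Figure D1:**
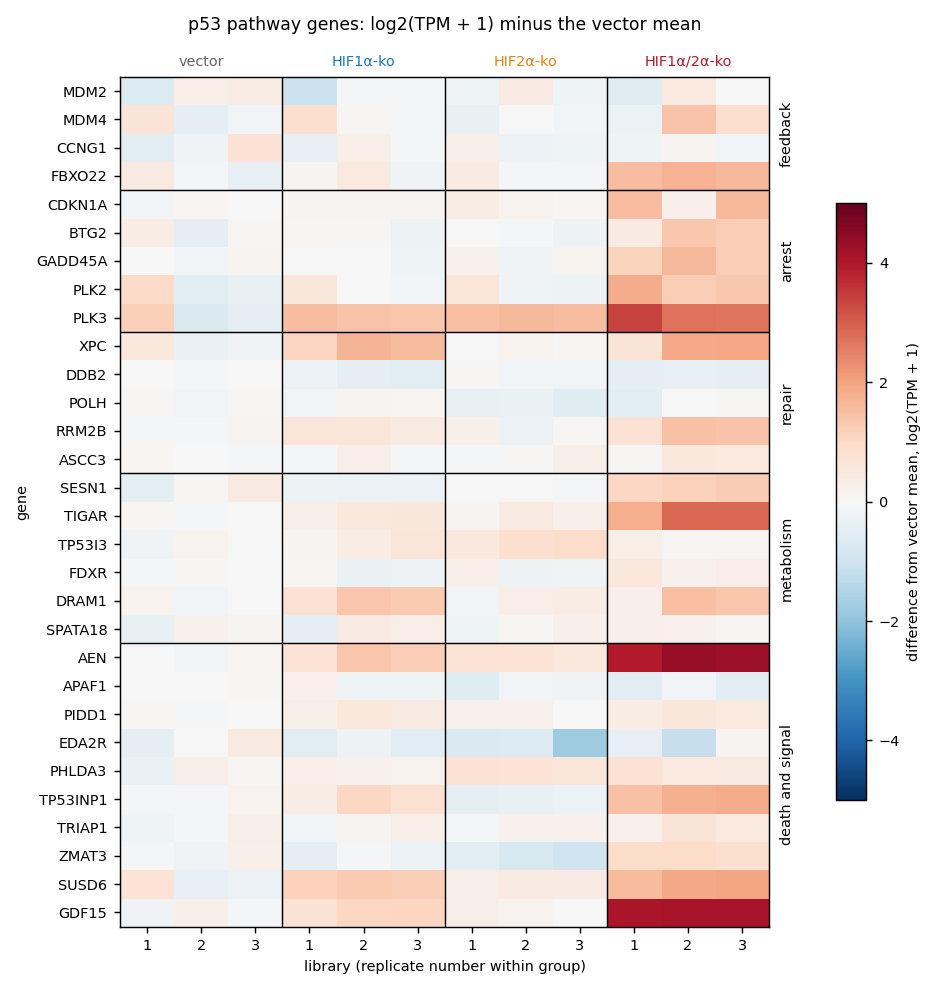
Difference of log2(TPM + 1) from the mean of the 3 vector libraries, for the 30 tested genes (rows, grouped by role) in each of the 12 libraries (columns, numbered within their group); red is higher and blue is lower. The 3 HIF1α/2α-ko columns hold most of the deep red, with AEN and GDF15 the deepest, and in the 3 HIF2α-ko columns PLK3 is the reddest gene.

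The stretch of sequence before the start of each gene was searched for the p53 site, which is a pair of copies of the p53 half-site consensus separated by up to 13 bases. RefSeq start sites on build GRCh38.p14 were matched for 26 of the 32 genes, with 250 bases before each start. PHLDA3, GADD45A, FBXO22, ASCC3, RRM2B and TP53INP1 had no matched entry. The consensus reads alike on both strands. A site with at most 2 mismatches in its 20 positions was found before 5 of the 26 genes (19.2%) and before 2218 of 27305 genes (8.12%). Counting only sites without a spacer, the shares were 2 of 26 (7.70%) and 194 of 27305 (0.71%); with at most 1 mismatch, none of the 26 and 215 of the 27305 genes (0.79%) held a site. The windows of the 5 genes with at most 2 mismatches are shown, chosen by sequence alone, with the half-sites in capitals, 5′ to 3′ on the strand of the gene:
AEN: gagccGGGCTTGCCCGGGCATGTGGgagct
MDM2: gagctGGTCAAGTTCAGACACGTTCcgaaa
CCNG1: GAAAATGCCCccttctcgcGAGAAAGCCC
FDXR: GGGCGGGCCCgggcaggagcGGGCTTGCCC
SESN1: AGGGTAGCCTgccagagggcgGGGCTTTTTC
The AEN window lies at chr15:88621301-88621330 on the + strand, in an exon of the GENCODE 29 model although before the RefSeq start, and the MDM2 window at chr12:68808918-68808947 on the + strand, in an intron and before the inner start sites of the gene. The CCNG1 window (chr5:163437529-163437557, + strand) and the SESN1 window (chr6:109095058-109095088, - strand) lie outside the annotated transcripts. The FDXR window (chr17:74872996-74873025, - strand) lies in an exon of 3 of its 8 annotated transcripts. AEN rose the most of all tested genes in HIF1α/2α-ko and SESN1 rose too. MDM2, CCNG1 and FDXR did not pass the test there, although FDXR did with the replicate number as a block (limma, adjusted p = 0.046). The part of these windows in the changes was not tested. The HIF core motifs ACGTG or GCGTG, searched on either strand and not able to match at the same position of a strand, were present before 15 of the 26 genes (57.7%) and 47.41% of all genes. These matches describe letters in the window only.

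The feedback arm had 1 call over the 3 comparisons with vector. Of its 5 genes 4 could be tested, and FBXO22 alone rose in HIF1α/2α-ko (25%, against 31.8% of all genes). None was called in either single knockout (limma, with 0 at an unadjusted p under 0.05 as well). There 17.3% of all genes were higher in HIF1α-ko and 5.07% in HIF2α-ko. MDM2 was at 6.74 ± 2.78 TPM in vector (SD, n = 3), 4.80 ± 1.97 across HIF1α-ko, 6.49 ± 1.97 across HIF2α-ko and 6.55 ± 2.79 across HIF1α/2α-ko. Its change in HIF1α/2α-ko was -0.03 ± 0.37 (SE; limma, adjusted p = 0.95), with wide spread in every group, from 3.53 to 8.5 TPM among the vector libraries alone. MDM4, the relative of MDM2 that binds and inhibits p53, was at 1.51, 7.06 and 4.5 TPM in HIF1α/2α-ko and 3.72, 1.16 and 1.74 TPM in vector, groups that overlapped (change 0.66 ± 0.40, adjusted p = 0.20). Without HIF1α/2α-ko replicate 1, the change of MDM4 passed the test (adjusted p = 0.018). CCNG1, the cyclin G1 gene, stayed between 38.7 and 93.5 TPM in all 12 libraries, with a change of -0.06 ± 0.29 in HIF1α/2α-ko (adjusted p = 0.88).

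FBXO22 encodes the substrate-binding subunit of a ubiquitin ligase that can act on p53. It was at 6.78, 4.36 and 3.28 TPM in vector, 5.25, 6.89 and 3.96 across HIF1α-ko, 6.40, 4.24 and 4.40 across HIF2α-ko and 15.6, 17.9 and 16.2 across HIF1α/2α-ko. All 3 HIF1α/2α-ko libraries were above every other library, and the 9 others overlapped freely. The rise was 1.64 ± 0.24 (SE; limma, adjusted p = 0.00017), a ratio of mean TPM of 3.45. PPM1D, the phosphatase that removes activating phosphates from p53 and its kinases, was below the test's filter: it was at 0.653, 1.19 and 1.12 TPM in HIF1α/2α-ko and no higher than 0.753 TPM in the other groups.

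The arrest group moved as a whole in HIF1α/2α-ko. All 5 of its tested genes rose there (100%, against 31.8% of all genes), with a median change of 1.32. PLK3 alone rose in the single knockouts (20% in each, against 17.3% of all genes in HIF1α-ko and 5.07% in HIF2α-ko). CDKN1A, which encodes the cyclin-dependent kinase inhibitor p21, was the most abundant gene of the group, at 144, 173 and 163 TPM in vector, 177, 177 and 173 across HIF1α-ko, 205, 179 and 172 across HIF2α-ko and 472, 193 and 489 across HIF1α/2α-ko. In HIF1α/2α-ko, replicates 1 and 3 were far above all other libraries and replicate 2 was below the highest HIF2α-ko library. The rise over vector was 1.15 ± 0.27 (SE, limma, adjusted p = 0.0042). Without replicate 2 of HIF1α/2α-ko it was 1.59 (adjusted p = 1.79e-05), without replicate 1 it was 0.94 (0.017) and without replicate 3 it was 0.92 (0.023).

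GADD45A, a stress protein that activates p38 and JNK signalling, had little spread: 37.7, 34.9 and 42.1 TPM in vector, 38.0, 37.6 and 33.0 across HIF1α-ko, 44.2, 34.0 and 43.2 across HIF2α-ko and 83.1, 119.5 and 91.3 across HIF1α/2α-ko. The last group lay above all others, with a rise of 1.32 ± 0.16 (adjusted p = 4.6e-05). BTG2, an antiproliferative factor that recruits the deadenylation machinery to mRNA, was at 2.07, 0.740 and 1.46 TPM in vector, 1.51, 1.48 and 0.989 across HIF1α-ko, 1.35, 1.19 and 0.999 across HIF2α-ko and 2.17, 5.0 and 4.56 across HIF1α/2α-ko. HIF1α/2α-ko stood above the other groups, which overlapped each other, but its lowest library was close to the highest vector library (rise 1.00 ± 0.26, adjusted p = 0.0066).

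PLK2 and PLK3 are stress-responsive kinases of the polo-like family. PLK2 was at 35.8, 11.7 and 13.5 TPM in vector, 26.9, 18.4 and 16.4 across HIF1α-ko, 27.5, 15.2 and 15.0 across HIF2α-ko and 68.0, 43.4 and 46.7 across HIF1α/2α-ko. Replicate 1 was the highest library of each of the 4 groups, and the HIF1α/2α-ko libraries were above all others (rise 1.47 ± 0.37, adjusted p = 0.0061). PLK3 was at 14.2, 3.05 and 3.77 TPM in vector, 18.6, 16.7 and 16.4 across HIF1α-ko, 17.6, 19.5 and 18.4 across HIF2α-ko and 67.4, 42.2 and 41.5 across HIF1α/2α-ko. Every knockout library was above every vector library, and HIF1α/2α-ko was above both single knockouts.

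PLK3 rose by 2.91 ± 0.38 in HIF1α/2α-ko (limma, adjusted p = 8.4e-05), by 1.45 ± 0.38 with the HIF1α knockout (0.017) and by 1.55 ± 0.38 with the HIF2α knockout (0.024). The second of these calls failed when vector replicate 2 (adjusted p = 0.073) or 3 (0.074) was left out, and the third when vector replicate 2 (0.087), vector replicate 3 (0.11) or any single library of HIF2α-ko (0.060 to 0.078) was left out. E2F7, a repressor of cell cycle genes, was listed at 0 in 8 libraries and did not pass 0.0289 TPM in the others.

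The repair group was divided. XPC and RRM2B rose in HIF1α/2α-ko (40%, against 31.8% of all genes), DDB2 fell (20%, against 14.8%), and POLH and ASCC3 were not called. XPC, the sensor of global genome nucleotide excision repair, was at 8.16, 3.96 and 4.55 TPM in vector, 12.4, 19.4 and 17.8 across HIF1α-ko, 5.24, 6.16 and 5.51 across HIF2α-ko and 8.78, 22.8 and 23.2 across HIF1α/2α-ko. HIF1α-ko and HIF1α/2α-ko were above vector, HIF2α-ko lay within the vector range, and HIF1α/2α-ko replicate 1 was close to vector replicate 1. The rise was 1.45 ± 0.33 in HIF1α-ko (SE; limma, adjusted p = 0.0087) against 1.49 ± 0.33 in HIF1α/2α-ko (0.0030), and the latter differed from HIF1α-ko by 0.04 ± 0.33 (adjusted p = 0.94).

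DDB2, which recognises ultraviolet lesions in chromatin, was the only gene of the set to fall in HIF1α/2α-ko. It was at 42.9 ± 1.36 TPM in vector (SD, n = 3), 31.6 ± 2.94 across HIF1α-ko, 40.6 ± 3.36 across HIF2α-ko and 30.9 ± 0.978 across HIF1α/2α-ko, and neither HIF1α-ko nor HIF1α/2α-ko overlapped vector. The falls were -0.43 ± 0.12 in HIF1α-ko (adjusted p = 0.021) against -0.46 ± 0.12 in HIF1α/2α-ko (0.0074), and the first was lost without vector replicate 3 (0.063), HIF1α-ko replicate 2 (0.074) or HIF1α-ko replicate 3 (0.089). Under median ratio scaling or quantile normalization, POLH and APAF1 were called lower in HIF1α/2α-ko as well.

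RRM2B, the p53-inducible subunit of ribonucleotide reductase that supplies nucleotides for repair, was at 2.12, 2.06 and 2.58 TPM in vector, 3.96, 3.96 and 3.44 across HIF1α-ko, 2.85, 1.68 and 2.34 across HIF2α-ko and 4.28, 7.84 and 7.72 across HIF1α/2α-ko. HIF1α-ko and HIF1α/2α-ko did not overlap vector, while HIF2α-ko did. The rise was 1.19 ± 0.21 in HIF1α/2α-ko (adjusted p = 0.00068) and the change 0.56 ± 0.21 in HIF1α-ko (adjusted p = 0.070). POLH, a translesion polymerase, was at 9.94 ± 0.897 TPM in vector and 7.09 ± 0.803 in HIF2α-ko, a change of -0.44 ± 0.18 that did not pass the test (adjusted p = 0.14). ASCC3, a helicase of alkylation repair, stayed between 1.12 and 2.27 TPM in all libraries (change 0.36 ± 0.18 in HIF1α/2α-ko, adjusted p = 0.11). Without HIF1α/2α-ko replicate 1, the changes of ASCC3 there (0.023) and of RRM2B in HIF1α-ko (0.021) passed the test.

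Among the 6 metabolic genes, TIGAR, SESN1 and DRAM1 rose in HIF1α/2α-ko (50%, against 31.8% of all genes). TIGAR, a phosphatase that lowers fructose 2,6-bisphosphate and so slows glycolysis, was at 0.204, 0.10 and 0.107 TPM in vector, 0.410, 0.636 and 0.681 across HIF1α-ko, 0.245, 0.539 and 0.36 across HIF2α-ko and 3.01, 7.22 and 7.34 across HIF1α/2α-ko. It was barely detected in vector, all knockout libraries were above the vector libraries, and HIF1α/2α-ko was above all other groups. TIGAR was under 1 TPM in every vector and single-knockout library. It therefore met the filter of at least 1 TPM in at least 3 libraries only through HIF1α/2α-ko, the group where it is high. Its fitted rise there was 2.52 ± 0.24 (limma, adjusted p = 1.1e-05). Because of that selection, this p-value and the place of TIGAR in the counts and ranks describe its level and are no independent support. The changes in the single knockouts were 0.47 ± 0.24 (adjusted p = 0.17) and 0.28 ± 0.24 (0.50), and the one in HIF1α-ko passed with a pseudocount of 0.1 (0.018) and without HIF1α/2α-ko replicate 1 (0.021).

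SESN1, a sestrin that restrains mTORC1 and oxidative stress, was at 1.83, 3.12 and 4.48 TPM in vector, 2.34, 2.25 and 2.30 across HIF1α-ko, 3.01, 2.92 and 2.87 across HIF2α-ko and 7.22, 7.86 and 8.74 across HIF1α/2α-ko. Both single knockouts lay inside the vector range, and HIF1α/2α-ko was above all 9 other libraries (rise 1.16 ± 0.21, adjusted p = 0.00067). Without vector replicate 1, SESN1 was called lower in HIF1α-ko (0.025). DRAM1, a lysosomal membrane protein of autophagy, was at 11.8, 9.40 and 10.1 TPM in vector, 17.9, 28.9 and 27.3 across HIF1α-ko, 9.34, 13.5 and 13.7 across HIF2α-ko and 12.5, 31.0 and 28.8 across HIF1α/2α-ko. As for XPC, HIF1α-ko and HIF1α/2α-ko were above vector and replicate 1 was the lowest of both. The rises of DRAM1 were 1.14 ± 0.30 in HIF1α-ko (adjusted p = 0.016) against 1.04 ± 0.30 in HIF1α/2α-ko (0.013); the first failed when replicate 2 or 3 of vector (0.058 and 0.053) or of HIF1α-ko (0.066 and 0.065) was left out, and the second when replicate 2 (0.062) or 3 (0.058) of HIF1α/2α-ko was.

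TP53I3, a quinone oxidoreductase, was the metabolic gene that rose in HIF2α-ko. It was at 11.5 ± 1.47 TPM in vector (SD, n = 3), 15.1 ± 2.59 across HIF1α-ko, 20.4 ± 2.99 across HIF2α-ko and 12.8 ± 1.15 across HIF1α/2α-ko, with HIF2α-ko above vector and HIF1α/2α-ko in every library. The rise was 0.77 ± 0.17 (adjusted p = 0.014), and it failed when replicate 3 of vector (0.054) or replicate 2 (0.063) or 3 (0.067) of HIF2α-ko was left out. FDXR, the mitochondrial ferredoxin reductase, was at 28.2 ± 1.64 TPM in vector and 36.8 ± 3.78 in HIF1α/2α-ko without passing the test (change 0.36 ± 0.17, adjusted p = 0.088). SPATA18, a protein of mitochondrial quality control, stayed between 4.13 and 8.41 TPM throughout.

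The group of death effectors, survival modifiers and the secreted signal held the largest changes. Of its 10 genes 7 rose in HIF1α/2α-ko (70%, against 31.8% of all genes) and 5 in HIF1α-ko (50%, against 17.3%). In HIF2α-ko 1 rose (10%, against 5.07%) and 1 fell (10%, against 5.89%). AEN, the apoptosis-enhancing nuclease (chr15:88621296-88632282), was at 1.89, 1.59 and 2.02 TPM in vector, 3.57, 6.32 and 5.71 across HIF1α-ko, 3.51, 3.50 and 3.08 across HIF2α-ko and 42.6, 56.4 and 53.8 across HIF1α/2α-ko. No knockout library overlapped vector, and the mean of HIF1α/2α-ko was 27.8 times that of vector. The rises were 1.10 ± 0.19 in HIF1α-ko (SE; limma, adjusted p = 0.0022) against 4.19 ± 0.19 in HIF1α/2α-ko (1.1e-07). In HIF2α-ko the change of 0.62 ± 0.19 was just over the threshold (adjusted p = 0.057), and it passed under 8 of the alternative settings (0.018 to 0.050). The replicate number as a block was among these settings (0.036).

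GDF15, a secreted cytokine of the TGF-β family that is released by stressed cells (chr19:18374731-18389176), was at 15.6, 21.3 and 17.2 TPM in vector, 30.4, 38.2 and 39.0 across HIF1α-ko, 22.1, 20.1 and 17.6 across HIF2α-ko and 319.8, 325 and 329.9 across HIF1α/2α-ko. HIF1α-ko and HIF1α/2α-ko were above vector in every library, HIF2α-ko overlapped it, and the 3 HIF1α/2α-ko values were nearly equal. The ratio of mean TPM was 18.0 in HIF1α/2α-ko and 1.99 in HIF1α-ko, with rises of 4.11 ± 0.15 (adjusted p = 1.8e-08) and 0.95 ± 0.15 (0.0012).

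TP53INP1, a stress-induced protein of autophagy and cell death, was at 0.893, 0.968 and 1.32 TPM in vector, 1.65, 3.18 and 2.46 across HIF1α-ko, 0.511, 0.577 and 0.677 across HIF2α-ko and 4.63, 6.08 and 6.50 across HIF1α/2α-ko. The 4 groups did not overlap, with HIF2α-ko below vector, although its change of -0.37 ± 0.19 was not called (adjusted p = 0.23). The rises were 0.71 ± 0.19 in HIF1α-ko (adjusted p = 0.016) against 1.70 ± 0.19 in HIF1α/2α-ko (2.5e-05), and the first was lost without vector replicate 2 (0.056), HIF1α-ko replicate 2 (0.075) or HIF1α-ko replicate 3 (0.059).

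SUSD6, a transmembrane protein induced by p53, was at 1.86, 0.341 and 0.471 TPM in vector, 2.95, 3.43 and 3.13 across HIF1α-ko, 1.18, 1.38 and 1.39 across HIF2α-ko and 4.36, 5.83 and 6.06 across HIF1α/2α-ko. Vector replicate 1 was above all HIF2α-ko libraries, and without it the change in HIF2α-ko passed the test (adjusted p = 0.0097). The rises were 1.23 ± 0.24 in HIF1α-ko (adjusted p = 0.0043) against 1.84 ± 0.24 in HIF1α/2α-ko (8.9e-05).

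ZMAT3, an RNA-binding regulator of splicing, moved in opposite directions. It was at 7.23 ± 1.37 TPM in vector (SD, n = 3), 5.65 ± 0.908 across HIF1α-ko, 3.78 ± 0.766 across HIF2α-ko and 13.9 ± 0.611 across HIF1α/2α-ko. It fell in HIF2α-ko (-0.78 ± 0.18, adjusted p = 0.017) and rose in HIF1α/2α-ko (0.87 ± 0.18, 0.0017), with neither group overlapping vector; the fall failed the test when replicate 3 of vector (0.083) or replicate 2 (0.063) or 3 (0.077) of HIF2α-ko was left out.

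PHLDA3, a pleckstrin-homology protein that restrains AKT, was the most abundant gene of the group in vector, at 257 ± 54.1 TPM, and rose to 402 ± 17.1 in HIF2α-ko (0.66 ± 0.14, adjusted p = 0.014) and to 373 ± 38.7 in HIF1α/2α-ko (0.55 ± 0.14, 0.0078). The rise in HIF2α-ko was lost without HIF2α-ko replicate 2 (0.053), and the rise in HIF1α/2α-ko under median ratio scaling (0.21). PIDD1, the scaffold of the caspase-2 platform, was at 3.84 ± 0.213 TPM in vector (SD, n = 3), 5.52 ± 0.515 across HIF1α-ko, 4.37 ± 0.539 across HIF2α-ko and 5.80 ± 0.459 across HIF1α/2α-ko. It rose by smaller amounts, 0.43 ± 0.15 in HIF1α-ko (adjusted p = 0.048) against 0.49 ± 0.15 in HIF1α/2α-ko (0.016), and neither rise passed under median ratio scaling (0.17 and 0.081) or quantile normalization (0.20 and 0.27), nor without vector replicate 2 (0.13 and 0.050) or HIF1α/2α-ko replicate 2 (0.064 and 0.063). In HIF1α-ko the rise of PIDD1 failed without 9 of the 12 libraries, each left out in turn. APAF1, the core of the apoptosome, EDA2R, a receptor for ectodysplasin, and TRIAP1, an inhibitor of apoptosis, were not called against vector: in HIF1α/2α-ko they changed by -0.40 ± 0.19 (adjusted p = 0.098), -0.47 ± 0.36 (0.30) and 0.44 ± 0.17 (0.053). The libraries of APAF1 ranged from 1.41 to 3.24 TPM and those of TRIAP1 from 26.5 to 48.5 TPM. EDA2R varied widely, from 1.33 to 9.75 TPM over the 12 libraries, and was called lower in HIF2α-ko without vector replicate 1 (0.038). TRIAP1 was called higher in HIF1α/2α-ko without vector replicate 3 (0.020), HIF1α-ko replicate 1 (0.046) or HIF1α/2α-ko replicate 1 (0.028). It was also called higher there with the replicate number as a block (limma, adjusted p = 0.0093).

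**Figure D2:**
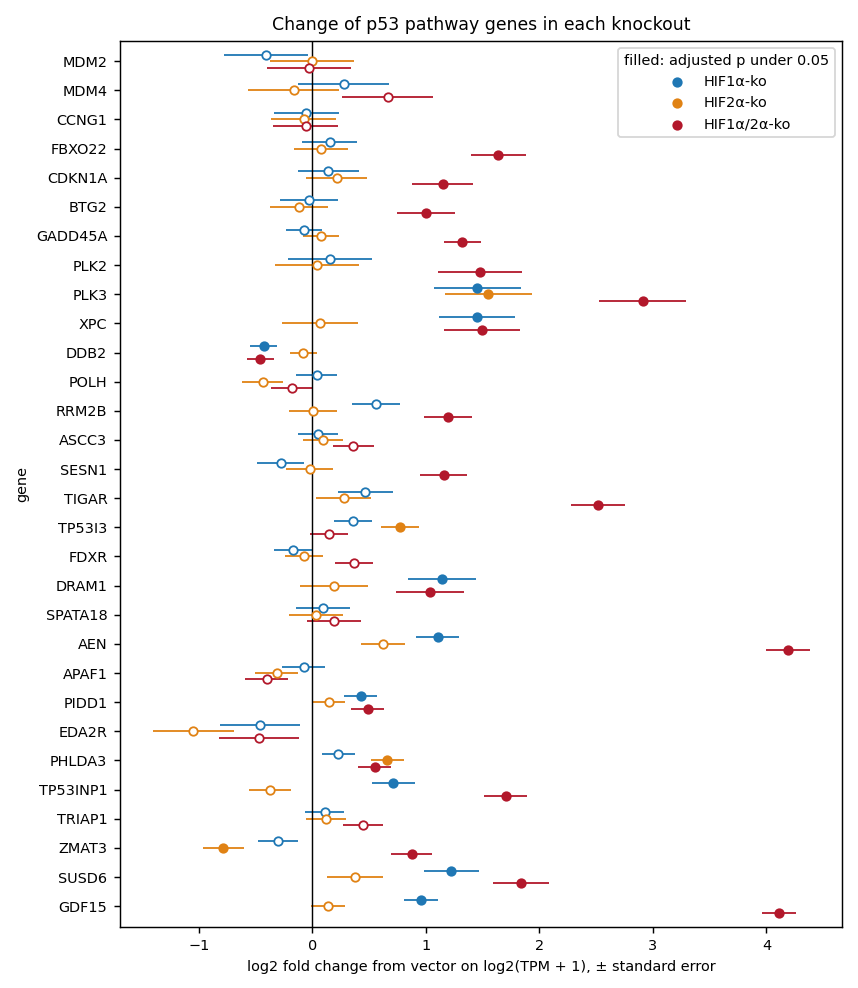
Log2 fold change from vector with its standard error for the 30 tested genes in each of the 3 knockouts; filled points had an adjusted p under 0.05 in limma. The HIF1α/2α-ko points reach 4.19 for AEN and 4.11 for GDF15, while no change in HIF2α-ko passed 1.55 (PLK3).

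The knockout groups were also compared with each other, where the vector libraries enter only the shared estimate of spread. HIF1α/2α-ko was higher than HIF1α-ko for 14 of the 30 genes and lower for 0 (17.7% and 10.6% of all tested genes were called higher and lower), and at an unadjusted p under 0.05 the count of lower genes in limma was also 0. The largest of these differences were GDF15 (3.15 ± 0.15, limma, adjusted p = 2.2e-07), AEN (3.09 ± 0.19, 2.0e-06) and TIGAR (2.05 ± 0.24, 0.00012). TIGAR could be tested only because of its level in HIF1α/2α-ko. All 5 arrest genes were among the 14. With the replicate number as a block over the knockout groups, RRM2B left this list (0.052) and PHLDA3 (0.0045), TRIAP1 (0.014) and SUSD6 (0.0032) joined it. The calls of CDKN1A (adjusted p = 0.015), PLK2 (0.019), FDXR (0.030) and RRM2B (0.042) were each lost without at least 1 library, CDKN1A without HIF1α/2α-ko replicate 1 (0.054) or 3 (0.070), PLK2 without that replicate 1 (0.060) or HIF1α-ko replicate 2 (0.057) or 3 (0.070). FDXR failed when replicate 2 (0.11) or 3 (0.093) of HIF1α-ko, or replicate 1 (0.077) or 3 (0.071) of HIF1α/2α-ko, was left out, and under median ratio scaling (0.098) or quantile normalization (0.19), and RRM2B without 8 of the 12 libraries (up to 0.15). Without vector replicate 1, PHLDA3 (0.025) and SUSD6 (0.0071) were called higher.

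HIF1α/2α-ko was higher than HIF2α-ko for 17 genes and lower for 2, DDB2 and TP53I3 (33.5% and 12.9% of all genes), in a pair of groups whose HIF1A levels overlapped. GDF15 differed by 3.97 ± 0.15 (adjusted p = 2.7e-08), AEN by 3.57 ± 0.19 (4.6e-07), TP53INP1 by 2.08 ± 0.19 (6.8e-06) and ZMAT3 by 1.66 ± 0.18 (2.1e-05). TP53I3 was lower by -0.62 ± 0.17 (0.0096). With the block, PIDD1 (0.032) and TRIAP1 (0.012) were called higher as well. CDKN1A lost its call without HIF1α/2α-ko replicate 1 (0.052) or 3 (0.067), DDB2 without HIF2α-ko replicate 1 (0.079) or HIF1α/2α-ko replicate 3 (0.071), DRAM1 without replicate 1 (0.12) or 2 (0.053) of HIF2α-ko or replicate 2 (0.14) or 3 (0.13) of HIF1α/2α-ko, and FDXR without 9 of the 12 libraries (up to 0.16). Under median ratio scaling and quantile normalization the difference of FDXR went from 0.44 to 0.17 and 0.12 (adjusted p = 0.55 and 0.65), DRAM1 failed under both (0.062 and 0.087) and CDKN1A under the first (0.10). Without HIF1α/2α-ko replicate 1, MDM4 (0.0094), PIDD1 (0.049) and POLH (0.037) were called higher.

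Between the single knockouts, 5 genes were higher in HIF1α-ko (GDF15, TP53INP1, XPC, DRAM1 and SUSD6) and 2 lower (DDB2 and PHLDA3), against 17.8% and 7.37% of all genes. With the block 8 were higher and 3 lower, the additions being AEN (0.029), POLH (0.034) and ZMAT3 (0.028), higher in HIF1α-ko, and TP53I3 (0.040), lower. GDF15 differed by 0.81 ± 0.15 (adjusted p = 0.0025) and TP53INP1 by 1.09 ± 0.19 (0.0018). These were the 2 calls that held without each library in turn; XPC (1.38 ± 0.33, 0.011) was lost without HIF1α-ko replicate 2 (0.052), and DDB2, DRAM1, PHLDA3 and SUSD6 were each lost without replicate 2 or 3 of HIF1α-ko or any library of HIF2α-ko (up to 0.16, 0.13, 0.13 and 0.088). AEN (0.017) and ZMAT3 (0.047) were called without HIF1α-ko replicate 1, and POLH (0.027) and RRM2B (0.021) without HIF1α/2α-ko replicate 1. Under median ratio scaling the split was 4 higher and 3 lower of 30, against 1032 higher and 1300 lower of all 11731 genes.

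Whether the 2 knockouts added up was tested by the interaction, taken on the log2 scale as what HIF1α/2α-ko showed beyond both single changes put together. It was positive for 9 genes and negative for 1, against 13.2% and 7.35% of all genes tested. GDF15 exceeded the sum by 3.01 ± 0.21 (limma, adjusted p = 2.4e-05), AEN by 2.46 ± 0.27 (0.00033), ZMAT3 by 1.96 ± 0.25 (0.00078) and TIGAR by 1.77 ± 0.34 (0.0047). TIGAR could be tested only because of its level in HIF1α/2α-ko. SESN1, FBXO22, TP53INP1, GADD45A and BTG2 exceeded the sum by 1.15 to 1.46, and TP53I3 fell short of it (-0.98 ± 0.24, adjusted p = 0.014). FBXO22, GADD45A, SESN1 and BTG2 had values within 0.28 of vector on the log2 scale in either single knockout, with no call there. PLK3 and XPC lay near the sum, with differences of -0.09 ± 0.54 and -0.03 ± 0.47 whose errors leave room for sizeable departures. For CDKN1A the interaction was 0.79 ± 0.38 (adjusted p = 0.16), and 0.0030 was its adjusted p without HIF1α/2α-ko replicate 2. Without replicate 1 or 3 of that group its adjusted p was 0.28 and 0.33. FDXR passed without HIF2α-ko replicate 1 (0.032) and RRM2B without HIF1α/2α-ko replicate 1 (0.021), and BTG2 (1.15 ± 0.36, 0.041) failed without 10 of the 12 libraries (up to 0.097). With the replicate number as a block, BTG2 failed (0.053), and FDXR (0.042) and PLK2 (0.0061) passed. The interaction of PLK2 was 1.28 ± 0.52 (0.10) in the main fit. BTG2 failed as well with a pseudocount of 0.1 (0.059) and with no filter (0.068).

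**Figure D3:**
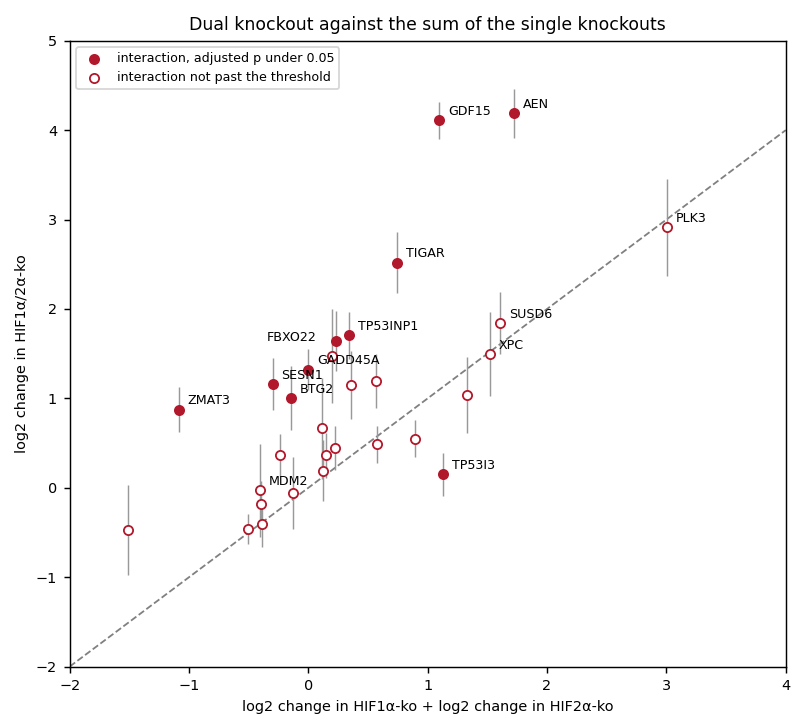
Log2 change in HIF1α/2α-ko (vertical axis) against the sum of the log2 changes in the single knockouts (horizontal axis) for the 30 tested genes, with the standard error of the interaction as vertical lines and the line of equal values dashed; all changes share the vector libraries. Filled points are the 10 genes with an adjusted interaction p under 0.05, of which TP53I3 alone lies under the line.

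Of 59 further direct targets of p53 52 could be tested, and in HIF1α/2α-ko 14 were higher (26.9%) and 10 lower (19.2%), near the 31.8% and 14.8% of all genes, with a median change of 0.12 against 0.21 over all genes. Among them SESN2 (2.78 ± 0.23, limma, adjusted p = 3.86e-06), a sestrin that also answers to amino acid and endoplasmic reticulum stress, and RNF19B (1.81 ± 0.12, 1.33e-06), a ubiquitin ligase, had the smallest p. In HIF1α-ko 12 of the 52 were higher (23.1%, against 17.3% of all genes) and 5 lower (9.62%, against 8.77%), and in HIF2α-ko 3 (5.77%, against 5.07%) and 4 (7.69%, against 5.89%). Of the 6 tested upstream kinases and adaptors 1 rose in HIF1α/2α-ko (16.7%, against 31.8% of all genes). It was TP53RK, a p53-regulating kinase (2.52 ± 0.23, 8.28e-06), and CHEK1, the checkpoint kinase, was at -0.51 ± 0.20 (0.053). Of 7 ubiquitin ligases and deubiquitinases 3 were higher (42.9%, against 31.8%) and 1 lower (14.3%, against 14.8%). TRIM24 (1.07 ± 0.18, 0.00038) and COP1 (1.06 ± 0.30, 0.011) were the highest-ranked by p. Of 7 cofactors 3 were lower (42.9%, against 14.8%) and 0 higher (against 31.8%), with TP53BP2 (-0.99 ± 0.20, 0.0017) and PPP1R13L (-0.87 ± 0.15, 0.00054) ranked first. None of 3 inhibitors of MDM2 was called by limma in HIF1α/2α-ko, and 1 had an unadjusted p under 0.05, RPL11 (0.34 ± 0.15, adjusted p = 0.088), followed by RPL5 (0.21 ± 0.14, 0.24). CDKN2A, which encodes the MDM2 inhibitor ARF as well as p16, was listed at 0 in all 12 libraries.

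Several genes of the set, GDF15 among them, are known to answer to the integrated stress response, which runs through the transcription factor ATF4. Of the 12 genes listed for that response, 8 were higher in HIF1α/2α-ko (66.7%, against 31.8% of all genes), 1 was lower and 3 were not called, with a median change of 1.10. In HIF1α-ko 5 were higher (41.7%, against 17.3%), 2 lower and 5 not called, with a median of 0.59, while in HIF2α-ko 0 of 12 were called by limma, 3 had an unadjusted p under 0.05 and the median was 0.10. PSAT1, of serine synthesis, rose by 3.29 ± 0.35 in HIF1α/2α-ko (adjusted p = 1.92e-05) and by 1.93 ± 0.35 in HIF1α-ko (0.0027). DDIT3, the transcription factor CHOP, rose by 2.08 ± 0.27 (8.41e-05) and 1.48 ± 0.27 (0.0029). In HIF2α-ko their changes were 1.05 ± 0.35 (0.074) and 0.78 ± 0.27 (0.089). The part of this response in the rise of the p53 genes was not tested.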

How the data were processed

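Total RNA was extracted with Trizol, and mRNA libraries were prepared with a VAHTS kit, per the labels. The TPM values were deposited by the authors as 1 table of 20263 genes by 12 libraries; the submitters' processing notes name FastQC 0.11.2, Trimmomatic 0.36, HISAT2 2.0, bedtools 2.26.0 and build GRCh38, and the counting tool and annotation are not given in the sources used here. Each library sums to the same total, so depth is unknown. Values were taken as log2(TPM + 1), genes with at least 1 TPM in at least 3 libraries were kept (11731), and 1 model of all 4 groups without a replicate term was fitted in limma 3.58.1 (R 4.3.3) with a mean-variance trend, two-sided, Benjamini-Hochberg adjusted within each of 7 comparisons; the paper names no test for these data. The fit was run on simulated data with independent libraries and few changed genes, which does not show its error rate in data like these. Figures and tables were made with Python 3.11.15, pandas 2.3.3 and matplotlib 3.10.9. All 32 genes are named; those past the threshold with a log2 change of at least 1 against vector have every library's value, the others their means or ranges, and of each further list the 2 genes ranked first by p in HIF1α/2α-ko against vector are named. The genes and lists were chosen with earlier results of these data known. Same-numbered libraries of the knockout groups deviated together (r of deviations 0.196 to 0.508 across genes), from the values alone, while vector did not pair with them (-0.027 to 0.163). The pairing was clearest for replicate 1 (0.463 to 0.508) and weaker for replicates 2 and 3 (0.196 to 0.250). HIF1α-ko replicates 2 and 3 and HIF2α-ko replicate 3 matched another number of HIF1α/2α-ko at least as well. Blocked fits of the knockout groups are given where they change a call, with that limit. The alternatives were another pseudocount, 2 filters, 2 scalings, a fit of the compared groups only, no trend, replicate blocks, a size limit and each library left out. Promoter sequences and starts came from RefSeq (GRCh38.p14) and positions from GENCODE 29.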

Additional observations from a re-analysis of the deposited data

Results flagged for a closer look

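The change in HIF1α/2α-ko was not the plain total of both single knockouts, by the interaction term in limma, for 10 genes of the p53 set. GDF15 lay above the sum by 3.01, AEN by 2.46, ZMAT3 by 1.96, TIGAR by 1.77, SESN1 by 1.46, FBXO22 by 1.41, TP53INP1 by 1.36, GADD45A by 1.32 and BTG2 by 1.15 on the log2 scale, and TP53I3 was at -0.98. TIGAR passed the low-value filter only through HIF1α/2α-ko. GDF15 was 0.95 higher in HIF1α-ko than in vector and 3.97 higher in HIF1α/2α-ko than in HIF2α-ko, and AEN 1.10 and 3.57, although HIF1A RNA in HIF1α/2α-ko overlapped that in HIF2α-ko. The interaction of BTG2 was past the threshold in the reported fit (adjusted p = 0.041) but not without 10 of the 12 libraries, each left out in turn (highest adjusted p 0.097). Nor was it with the replicate number as a block (0.053). The groups of 3 libraries are too small for a test of single deviating libraries.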

How the results depend on the processing

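No call of a gene of the p53 set changed direction under any alternative. Of the calls in HIF1α/2α-ko against vector, 16 of 19 held in every alternative, as did 4 of 9 in HIF1α-ko, 0 of 4 in HIF2α-ko, 10 of 14 and 15 of 19 in HIF1α/2α-ko against HIF1α-ko and against HIF2α-ko, 2 of 7 between the single knockouts and 9 of 10 interactions; the cause of the lost calls was not tested. With the replicate block the counts of higher genes of 30 were 20 in HIF1α/2α-ko, 8 in HIF1α-ko and 4 in HIF2α-ko against vector (4157, 2672 and 894 of all 11731 genes). Blocked over the knockout groups only, 16 were higher in HIF1α/2α-ko against HIF1α-ko (3398 of all) and 19 against HIF2α-ko (5114). Between the single knockouts 8 were higher (4438) and 3 lower (1489). Apart from the calls named in the report the pairing changed no other call in those comparisons.

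A filter at a mean TPM of 5 tested 20 genes of the set among 8011 genes. Against vector, 11 of the 20 were higher in HIF1α/2α-ko (2698 of all 8011) and 5 in HIF1α-ko (1561). In HIF1α/2α-ko 9 were higher against HIF1α-ko (1624 of all) and 11 against HIF2α-ko (2792). Between the single knockouts 3 were higher (1438), and 5 interactions were positive (1296). The set's median relative to all genes was then 0.492 in HIF1α/2α-ko, 0.251 against HIF1α-ko, 0.466 against HIF2α-ko and 0.15 for the interaction. With no filter that median was 0.088 in HIF1α-ko, 0.804 in HIF1α/2α-ko against HIF2α-ko and 0.018 between the single knockouts, where 1 gene of 32 was lower (961 of all 16881). Fitting only the compared groups left 0 lower genes in HIF1α-ko (726 of all 11731 genes) and no call (0 and 0) in HIF2α-ko (224 higher and 250 lower of all). It left 1 lower between the single knockouts (1067 of all), and this count was 0 with no mean-variance trend (853 of all). Under median ratio scaling and under quantile normalization 3 of 30 genes were lower in HIF1α/2α-ko, against 2600 and 2848 of all 11731 genes. With a log2 change of at least 1 in size required, 5 were higher in HIF1α-ko, 1 in HIF2α-ko and 2 between the single knockouts, and 0 were lower in each of these, in HIF1α/2α-ko against vector or HIF2α-ko and in the interaction. Over all 11731 genes the higher counts were 480, 127 and 412. The lower counts over all genes, in the same order, were 334, 136, 352, 545, 476 and 475.

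Over all genes, median ratio scaling turned 3732 higher and 1741 lower in HIF1α/2α-ko into 2854 and 2600, 2031 and 1029 in HIF1α-ko into 1278 and 1527, and 3933 and 1509 in HIF1α/2α-ko against HIF2α-ko into 2748 and 2468. Leaving out each library in turn gave, against vector, 16 to 21 of the 30 genes higher in HIF1α/2α-ko (2948 to 4316 of all 11731). With the HIF1α knockout 4 to 10 were higher (1010 to 2828) and 0 to 2 lower (542 to 1366). With the HIF2α knockout 0 to 4 were higher (250 to 1304) and 0 to 2 lower (219 to 1193). There 0 and 0 were reached without HIF2α-ko replicate 2 (250 and 298 of all). Between the single knockouts 2 to 7 were higher (847 to 2689) and 0 to 2 lower (574 to 1057). In HIF1α/2α-ko against HIF2α-ko 1 to 2 were lower (1143 to 1749). The counts over all genes thus also varied widely with the library left out. The relative median was 0.386 to 0.575 in HIF1α/2α-ko against HIF1α-ko, 0.524 to 0.871 against HIF2α-ko, -0.168 to -0.008 between the single knockouts and 0.108 to 0.405 for the interaction. The p53 sites before the genes numbered 0, 0 and 5 of 26 with at most 0, 1 and 2 mismatches.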
